A study of Homo sapiens with 40 samples.

Results

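Open chromatin that was detected throughout the trastuzumab-resistant line BT474R and never in its parental line BT474 made up 685 of 76603 merged regions. Peaks of all 40 lists on chromosomes 1 to 22 and X were merged wherever they shared at least 1 bp, and a region was taken when it held a peak in 20 of 20 BT474R lists and in 0 of 20 BT474 lists. These 685 BT474R-only regions were 2.42% of the 28260 regions with a peak in all 20 BT474R lists, and 1803 regions showed the mirror pattern, with a peak in every BT474 list and in no BT474R list. The regions were chosen by the presence and absence of peaks, so the contrast between the lines is a description and was not tested.

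BT474 is a HER2-overexpressing breast ductal carcinoma line, and BT474R is a single clone obtained from it by growth in trastuzumab, an antibody against HER2. All cells were serum-starved. They were collected at 0 h (baseline) or after EGF, HRG (heregulin) or vehicle (control) for 1, 12 and 24 h, with 2 libraries per group. Accessibility was measured by ATAC-seq, in which a transposase inserts adapters into DNA that is not wrapped tightly in nucleosomes. Per the methods, treatments were done in duplicate. The sources do not say whether duplicates were grown on separate days, so p-values measure the spread between these duplicates only.

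Regions of open chromatin mark promoters, where transcription starts, and distal elements such as enhancers, which bind transcription factors and can act on genes at a distance. EGF binds the receptor EGFR, and HRG binds ERBB3 and ERBB4. Both receptor types pair with HER2 (ERBB2) and signal through the MAPK and PI3K pathways. EGFR and other receptor kinases are known as routes by which HER2-positive cells can keep signaling under trastuzumab. Genes are named here by the nearest protein-coding start within 100 kb. Proximity does not show that a region acts on that gene.

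The 200 bases around the median summit are shown for 7 regions, read from GRCh38 on the plus strand, to display the strongest regions, one at a coding promoter, one beside a gene of the lists, a pair with the smallest p-values for a ligand response, and the strongest in EGFR. Capitals mark CAGGTG, the E-box letters known for the ZEB and SNAI repressors among other factors, or TGANTCA, the AP-1 site, on either strand. The first pair had the highest peak ranks, in an intron of TEX14 at chr17:58679409-58679608 and upstream of ARHGEF4 at chr2:130828094-130828293.
TEX14: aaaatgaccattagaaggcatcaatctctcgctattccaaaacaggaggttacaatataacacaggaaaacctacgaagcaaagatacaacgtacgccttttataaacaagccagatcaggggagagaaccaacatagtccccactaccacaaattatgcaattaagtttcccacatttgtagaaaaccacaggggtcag
ARHGEF4: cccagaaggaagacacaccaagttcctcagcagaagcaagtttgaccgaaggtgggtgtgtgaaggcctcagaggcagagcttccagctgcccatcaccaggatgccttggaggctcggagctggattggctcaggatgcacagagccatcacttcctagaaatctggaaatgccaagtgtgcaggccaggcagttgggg
The next lay within 1 kb of a coding start, at PHLDB3 (chr19:43495364-43495563), and had the highest rank there.
PHLDB3: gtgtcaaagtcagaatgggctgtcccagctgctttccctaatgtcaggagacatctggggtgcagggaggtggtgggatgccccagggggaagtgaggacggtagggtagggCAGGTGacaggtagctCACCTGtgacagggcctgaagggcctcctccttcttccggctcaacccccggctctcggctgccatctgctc
Another lay near WNT7B (chr22:46007195-46007394), with the highest rank beside genes of the lists.
WNT7B: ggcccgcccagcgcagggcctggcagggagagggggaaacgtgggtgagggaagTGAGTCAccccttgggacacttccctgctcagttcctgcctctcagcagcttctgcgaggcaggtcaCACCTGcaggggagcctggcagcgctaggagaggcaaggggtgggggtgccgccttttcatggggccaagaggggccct
The pair chosen by its p-values lay near CRABP1 (chr15:78322355-78322554) and CLDN14 (chr21:36430177-36430376).
CRABP1: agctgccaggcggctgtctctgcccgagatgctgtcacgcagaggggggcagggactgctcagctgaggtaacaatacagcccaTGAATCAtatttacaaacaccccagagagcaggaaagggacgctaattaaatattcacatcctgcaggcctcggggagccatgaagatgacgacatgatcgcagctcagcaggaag
CLDN14: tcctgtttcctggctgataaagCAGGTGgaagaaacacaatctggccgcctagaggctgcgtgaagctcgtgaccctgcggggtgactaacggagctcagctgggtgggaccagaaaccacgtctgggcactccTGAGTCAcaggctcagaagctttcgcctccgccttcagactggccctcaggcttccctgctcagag
The last one, chosen after its values were seen, was the highest ranked of 3 regions in the EGFR gene (chr7:55031169-55031368).
EGFR: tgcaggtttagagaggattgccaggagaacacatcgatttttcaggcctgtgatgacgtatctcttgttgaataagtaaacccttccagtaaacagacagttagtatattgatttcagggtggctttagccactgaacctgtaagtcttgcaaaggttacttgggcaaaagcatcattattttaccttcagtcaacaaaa
CAGGTG occurred at PHLDB3, WNT7B and CLDN14 in these stretches, and the AP-1 letters at WNT7B, CRABP1 and CLDN14.

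The lists held 32479 to 56494 peaks in BT474R and 47571 to 56846 in BT474, and read depth is unknown because only peaks were used. The absence of a peak therefore means that no peak was called, and does not show closed chromatin. The shortest BT474R list was that of the control at 12 h, replicate 1. Of the 345 regions that missed the selection by 1 BT474R list, 258 lacked a peak in that library, and 944 regions met the rule when it was left out. The lines carried the marks of breast epithelium. Starts of 7 of 7 epithelial genes (EPCAM, CDH1, KRT8, KRT18, GATA3, FOXA1 and ERBB2) had a peak in all 40 lists. Of 12 immune marker starts, 10 had no peak in any list and 2 had one in some lists. Of 12 fibroblast and endothelial marker starts, 8 had none, 2 had one in some lists and 2 in all.

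BT474R-only regions were of middling size within their lists. Peak size was the value in column 7 of each list, read as the area of the peak. It was turned into a rank percentile within the library's own list (the list percentile), where 0 is the smallest and 100 the largest peak. The median over the 685 regions of their median list percentile was 45.8, with quartiles of 37.2 and 58.7, against 69.5 for the other 27575 regions present in all 20 BT474R lists. The lowest region stood at 17.2 and the highest at 98.7, with 25 regions over 80 and 23 under 25. The regions were also narrower, with a median width of 579 bp against 952 bp, and a wider peak has a larger area. Ranked instead by area per width, the median of the 685 was 52.3, and 53 regions stood over 30 points lower than their list percentile and 79 over 30 points higher. Just outside the threshold, the 345 regions present in 19 BT474R lists and no BT474 list had a median of 32.9. The 118 regions in 20 BT474R lists and 1 BT474 list had a median of 45.3, and their 1 BT474 peak stood at a median percentile of 4.44 in its list.

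The level of the set varied between libraries. The median list percentile of the 685 regions ran from 21.5 to 55.7 over the 20 BT474R libraries. The lowest value was in the control at 12 h, replicate 1, where 163 of the 685 regions had a list percentile under 10, against a median of 5 regions over the libraries. The 4 libraries of the control and EGF groups at 12 h had medians of 21.5, 38.1, 35.7 and 34.0, and the control libraries at 24 h stood at 38.4 and 45.1. The position of the peaks was steadier than their rank. In 583 regions (85.1%) the central 80% of summits lay within 100 bp of each other.

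**Figure D1:**
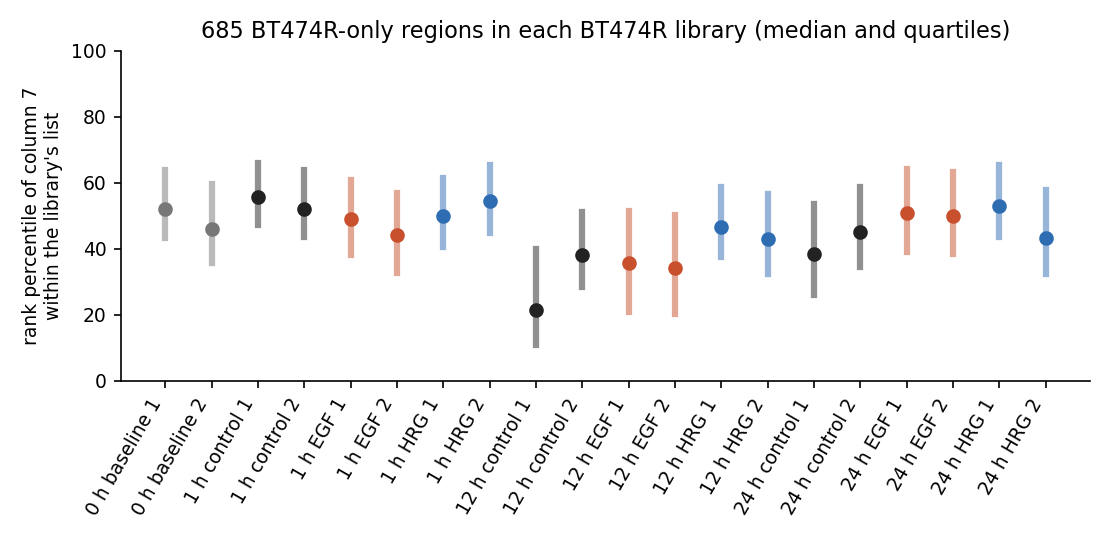
Median (dot) and quartiles (bar) of the list percentile of the 685 BT474R-only regions in each of the 20 BT474R libraries, ordered by time and coloured by treatment (grey baseline, black control, red EGF, blue HRG). The control at 12 h, replicate 1, had the lowest median, 21.5, and the control at 1 h, replicate 1, the highest, 55.7.

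The strongest BT474R-only regions, near TEX14, ARHGEF4 and POU2F2, belonged to the largest peaks of every BT474R library. The region in an intron of TEX14 (chr17:58678926-58680669), a gene of germ cell bridges, had list percentiles with a lowest value of 97.7, a median of 98.7 and a highest value of 99.1. It lay close to the start of RNVU1-34, a variant U1 small nuclear RNA gene. The region upstream of ARHGEF4 (chr2:130827603-130829590), ranged from 96.4 to 99.1 around a median of 98.3. No BT474 list had a peak at either place, although both genes had a peak at their own start in all 40 lists. The third was an exon of DEDD2 (chr19:42199241-42200247), 3096 bp upstream of a start of POU2F2, the octamer-binding factor known from B cells, with a median of 94.0 and a range of 91.5 to 95.1.

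A further 9 regions completed the 12 with the highest medians. GPR179, a retinal receptor gene, had one in an exon with a median of 92.2, and of 37.6 by area per width. A broad region of 91.5 lay 50018 bp upstream of RRN3, a factor of ribosomal RNA transcription. The sequence around its summit had 2 other near-identical places in the genome and that at GPR179 had 1, so reads could have been shared between copies. KCNU1 (88.4), FOXP4 (87.1), CHST12 (86.5), AACS (86.3) and INSIG1 (84.1) followed. By area per width the RRN3 region stood at 49.9, FOXP4 at 43.6, CHST12 at 58.5 and KCNU1 at 68.8. AACS stood higher at 95.6 and INSIG1 at 96.6. INSIG1 holds the SREBP lipid regulators in the endoplasmic reticulum, and its region lay 92144 bp upstream of the start. AACS makes acetoacetyl-CoA for lipid synthesis. The remaining pair had no coding start within 100 kb and lay in long noncoding RNA genes, ENSG00000234481 (86.6, and 35.2 by area per width) and SCIRT (84.6). Over these 9 regions the lowest list percentile in any library ran from 62.5 at RRN3 to 86.5 at GPR179. Over all 685 regions, 44 (6.42%) had another near-identical place, against 5.52% of the other regions in all 20 BT474R lists and 7.21% of the mirror set.

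Most BT474R-only regions lay away from promoters. Of the 685, 297 (43.4%) lay in introns of coding genes, 180 (26.3%) between genes, 64 (9.34%) in introns of lncRNA genes, 43 (6.28%) in exons of coding genes and 7 (1.02%) in exons of lncRNA genes. The other 94 (13.7%) lay within 1 kb of an annotated start, against 45.4% of the other regions in all 20 BT474R lists, 22.9% of the mirror set and 27.7% of all merged regions. Only 29 (4.23%) were within 1 kb of the start of a protein-coding transcript, against 36.9%, 11.9% and 19.7%. The other 65 lay at starts of noncoding transcripts, 35 of them from protein-coding genes and 18 from lncRNA genes. The share in coding exons, 6.28%, stood beside 2.20% of the other regions in all 20 BT474R lists and 2.50% of the mirror set. The median distance to any start was 7205 bp, and 42.6% lay more than 10 kb away.

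**Figure D2:**
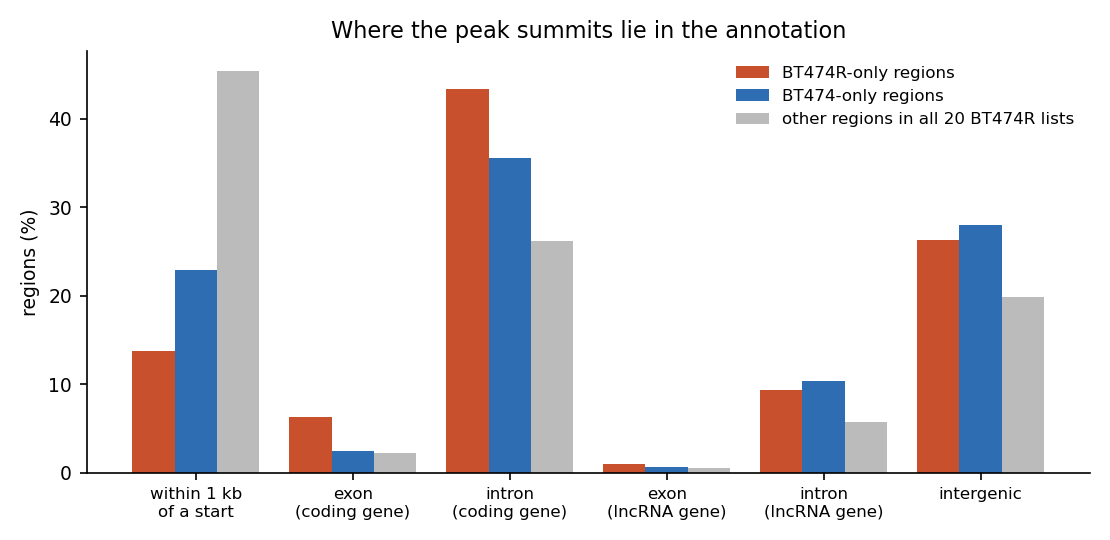
Share of regions (%) by where the summit lies in the annotation, for the 685 BT474R-only regions (red), the 1803 BT474-only regions (blue) and the other 27575 regions in all 20 BT474R lists (grey). Red bars are lowest at starts (13.7% against 22.9% and 45.4%) and highest in exons and introns of coding genes.

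Regions at coding starts were few, 29, and included genes of several functions. PHLDB3, a pleckstrin homology-like domain gene, had the highest ranked region at a coding start, with list percentiles from 69.3 to 88.5 and a median of 79.6. ACAP3, a GTPase-activating protein for ARF6, followed with a range of 69.0 to 87.4 and a median of 78.5. ACSF3, the mitochondrial malonyl-CoA synthetase, had a median of 70.8 and FETUB, a secreted protease inhibitor, 70.5. TFEB, the main activator of lysosome genes, had a median of 62.4 and its range was narrow, from 55.6 to 70.3. The photoreceptor nuclear receptor NR2E3 had 62.3, the cytochrome P450 gene CYP2W1 58.1, the spindle checkpoint gene MAD1L1 54.6, the polarity kinase MARK2 53.3 and C11orf16 51.1. The spread between libraries was widest at MARK2, from 5.45 to 72.5, so its level cannot be set apart from its neighbours in this order.

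The genes beside distal BT474R-only regions mostly had open starts in both lines. The regions beyond 1 kb of a coding start named 485 genes, and 334 of these (68.9%) had a peak within 1 kb of a coding start in all 40 lists. In 90 genes (18.6%) no BT474 list had such a peak, and in 71 of them no BT474R list had one either. In 4 genes, named after their values were seen, the start had a peak in all 20 BT474R lists and no BT474 list, namely ELFN2, FAM167B, GOT1L1 and TERT, the telomerase reverse transcriptase. Their regions had summits 1210 to 1349 bp from the coding start and edges within 1 kb of it, so each counted as the peak at the start. Its presence in all 20 BT474R lists and absence from BT474 lists thus followed from the selection. These 4 starts are no separate evidence of open promoters. Most regions were also near chromatin shared by the lines. The median distance to the nearest region present in all 40 lists was 15508 bp, and 613 regions (89.5%) had one within 100 kb. The shortest distance was 56 bp. Among regions named here it was 99 bp at INSIG1, 101 bp at TFEB and 107 bp at ACAP3 and CEACAM6. It was 118 bp at KRT7 and 146 bp at ELF3, but 229692 bp at KCNU1. Those with short distances thus adjoined chromatin that had a peak in every list of both lines.

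EGFR, the receptor for EGF, carried 3 BT474R-only regions, all intronic. The region at chr7:55030400-55031621, 12235 bp from the nearest coding start, had list percentiles from 46.0 to 77.8 and a median of 59.8. Those at chr7:55024234-55025053 and chr7:55047028-55047532, the second pair named after their values were seen as part of one cluster, had medians of 47.9 (29.4 to 58.0) and 34.7 (1.57 to 45.6). The start of EGFR itself had a peak in all 40 lists, with a median list percentile of 96.8 in BT474R and 90.3 in BT474. Of 15 merged regions in the gene, 12 had a peak in more BT474R than BT474 lists, 3 in all 40, and none in more BT474 lists. Of the 12, 3 were the BT474R-only regions, for which this followed from the selection. Some others differed little. Those at 24.9, 139.7 and 55.1 kb had a peak in 1, 2 and 4 BT474R lists and no BT474 list. That at 167.4 kb had 20 against 18. Other genes were not counted in this way, so nothing is read from the 12. Regions 110.9 and 114.1 kb into the gene had peaks in 20 BT474R lists and in 2 and 6 BT474 lists. The number of gene copies in the lines was not measured here.

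**Figure D3:**
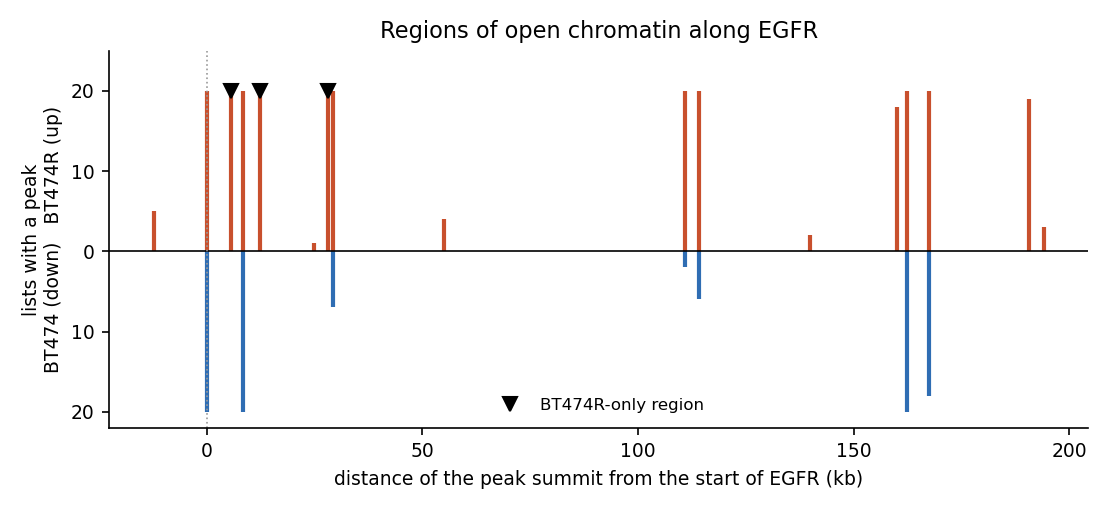
Number of lists with a peak in each merged region along EGFR, up to 20 for BT474R (red, up) and 20 for BT474 (blue, down), by distance of the summit from the outermost annotated start in kb. The 3 BT474R-only regions (triangles) lie between 5.54 and 28.2 kb, and the start has a peak in all lists of both lines.

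BT474R-only regions lay nearest to 26 of 398 entries in 16 lists of genes (6.53%), and since the lists were chosen with earlier results of these data known, nothing is read from that share. Over 19618 protein-coding genes, 511 (2.60%) were the nearest gene of a BT474R-only region within 100 kb and 1184 (6.04%) that of a mirror region. Among 24 HER receptors and bypass receptor kinases, 3 had one, namely EGFR, MET and FGFR3, and 3 had a mirror region. The FGFR3 region lay 8594 bp from its start, with a median list percentile of 55.3 and a range of 38.9 to 65.5. None of 11 HER ligand genes, 20 drug transport and metabolism genes, 51 homeobox and developmental genes or 12 immune markers had one. The homeobox and developmental list had 8 genes with a mirror region.

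Signaling and stress lists held between 1 and 5 such genes each. Of 25 MAPK feedback and immediate early genes, DUSP6, the phosphatase that switches off ERK, and SPRED2, an inhibitor of RAS and RAF signaling, had regions with medians of 62.0 and 37.1. Of 23 PI3K, AKT and mTOR genes, 1 had a region, the AKT-controlled factor FOXO3, with a median of 41.1. Of 23 hypoxia and glycolysis genes, 5 had one, against 2 with a mirror region. They were EPAS1, which encodes HIF2A (59.1), EGLN3, an oxygen-sensing hydroxylase (65.5), CA12, SLC2A1 and NDRG1. The start of CA12 itself had a peak in all 20 BT474 lists and no BT474R list. The starts of EPAS1, EGLN3, SLC2A1 and NDRG1 had one in every list of both lines. Of 25 NF-kB and inflammation genes, NFKBIA, the inhibitor of NF-kB (53.95), and the cytokine gene IL6 (51.2) had one. IRF2 (64.0) and IRF5 (38.0) were the members among 36 interferon and antigen processing genes, and the IRF2 region lay 99677 bp from the start. Ranked by area per width, regions stood lower at DUSP6 (26.1), SPRED2 (28.7), EPAS1 (18.4), NFKBIA (21.8), IRF2 (30.9) and IRF5 (19.5). They stood higher at EGLN3 (78.6), FOXO3 (57.1) and IL6 (58.3).

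The lineage, lipid and surface lists held 1 to 3 such genes each. Of 22 luminal lineage genes, ELF3, an epithelial ETS factor (67.2), KRT7, a simple epithelial keratin (61.6), and XBP1 had a region. Ranked by area per width, those of ELF3 and KRT7 stood at 4.30 and 2.43, so their list percentiles went with wide peaks. WNT7B, a WNT ligand, had a median of 69.4 but ranged from 1.21 to 85.8. It stood with NOTCH1 (45.7) for 2 of 35 TGF-beta, WNT and Notch genes. Of 24 lipid genes, SREBF1, the SREBP regulator of lipid synthesis (53.9), and ACACA, acetyl-CoA carboxylase (47.7), had regions. The start nearest to those was that of RAI1 and AATF. The SREBF1 region ranged from 1.37 to 73.7 and stood at 5.53 by area per width. Of 31 adhesion and surface genes, CD24 (46.5) and CEACAM6 (38.1) had one. The summits of these ACACA and CEACAM6 regions each had 1 near-identical place elsewhere, so reads could have been shared between copies. COL1A2 (42.1) was the 1 gene of 12 in the fibroblast and endothelial list, and its own start had no peak in any list. By area per width WNT7B (20.8), CD24 (17.1) and CEACAM6 (14.6) also stood lower, while NOTCH1 (63.9) and COL1A2 (76.0) stood higher.

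Some BT474R-only regions lay in clusters. Of the 685, 132 (19.3%) were within 100 kb of another, in 45 pairs and 14 groups of 3. In the mirror set, which is larger, the share was 30.2% and the largest cluster held 7 regions. AACS had 3, at medians of 86.3, 81.3 and 32.4 within 40.7 kb. The cluster of CHST12, a chondroitin sulfotransferase gene, and LFNG, a modifier of Notch receptors, had 86.5, 78.6 and 53.1 within 82.2 kb. MYO7B, an unconventional myosin of the brush border, had 3 in introns within 15.9 kb (74.8, 70.1 and 35.0). The first had 3 near-identical places elsewhere, so reads could have been shared between copies. The start of MYO7B had a peak in 17 BT474R lists and no BT474 list. MAD1L1 had 76.1, 64.6 and 54.6, the last at a coding start. The cluster at NTAN1 and RRN3 had 91.5, 74.7 and 41.5, and each of its summits had near-identical copies elsewhere. The sixth spanned SCIRT and the upstream side of TMEM63B, at 84.6, 57.9 and 35.6. By chromosome, the share of regions in all 20 BT474R lists that were BT474R-only ran from 1.10% on chromosome 3 to 3.75% on chromosome 21.

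Of 23 short motifs searched on both strands within 100 bp of the summit, CAGGTG was the most frequent in BT474R-only regions, as it was in the mirror set and in all merged regions. It occurred in 31.7% of them, against 24.4% of the mirror set, 23.2% of the other regions in all 20 BT474R lists and 23.4% of all merged regions. The AP-2 letters GCCNNNGGC, bound by TFAP2 factors of luminal cells, were in 21.0%, close to the 20.2% of the other regions in all 20 BT474R lists, against 13.7% of the mirror set and 16.5% of all. The CEBP letters TTGCNNAA were in 13.1%, against 9.40%, 9.82% and 11.0%. The shares are descriptions of letters, and a match is not evidence of binding.

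Several motifs were less frequent than in other regions. TGANTCA (AP-1) was in 10.4% of BT474R-only regions, 12.6% of the other regions in all 20 BT474R lists, 14.5% of the mirror set and 16.4% of all merged regions. The NFI letters TTGGCA were in 8.91%, against 11.2% of those other regions and 18.6% of the mirror set. GATA letters AGATAAG, in 1.61%, were below the mirror set (3.88%) but close to the other regions in all 20 BT474R lists (1.56%). The CTCF letters CAGNGGGC were in 3.94%, against 9.53% of those and 6.93% of the mirror set. Promoter-type letters were scarce. GGGCGGG (KLF/SP) was in 5.55% against 21.4% of those other regions and 8.49% of the mirror set, CCGGAAGT (ETS) in 0.146% against 2.84% and 0.277%, and GCGCATGCG (NRF1) in 0 of 685. The median GC content was 51.5%, against 57.0% of the other regions in all 20 BT474R lists, 50.5% of the mirror set and 51.5% of all merged regions. The median count of CpG dinucleotides in 200 bases was 3, against 5 of those other regions and 3 of the mirror set. Base composition thus differed from those other regions and was close to the mirror set. The share at starts was lower than in each of these sets. The part of either in the motif shares was not tested. Regions with CAGGTG had a median list percentile of 47.7 and those without 45.0.

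**Figure D4:**
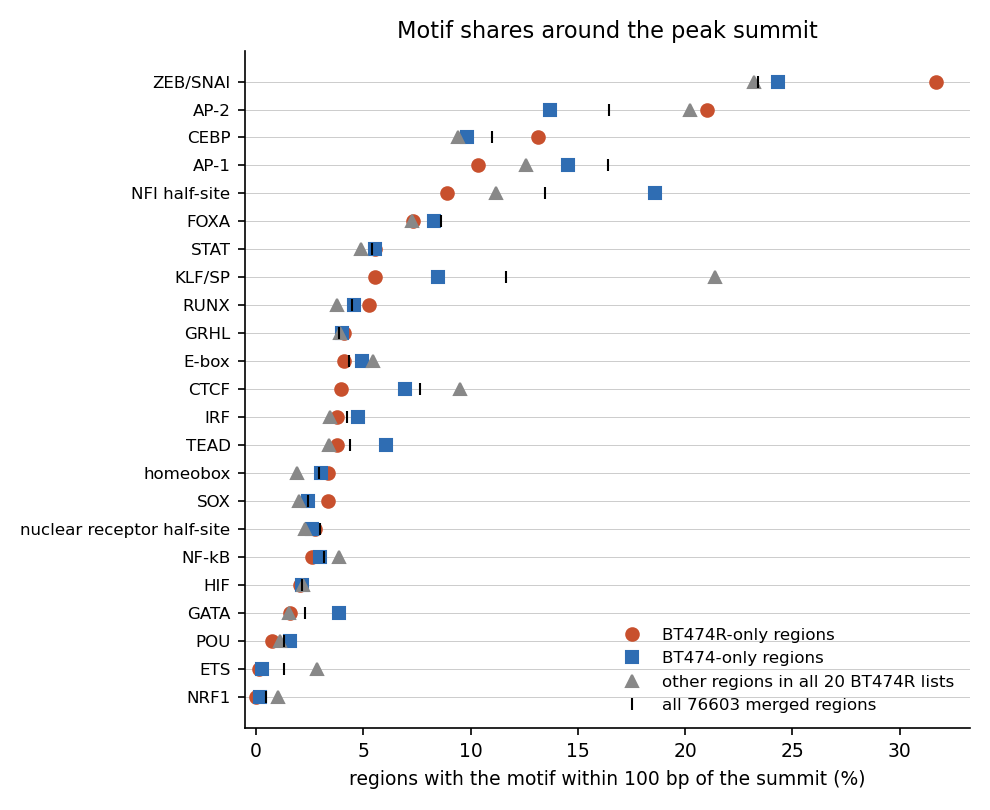
Share of regions (%) with each of 23 motifs within 100 bp of the summit, for BT474R-only regions (red dots), BT474-only regions (blue squares), other regions in all 20 BT474R lists (grey triangles) and all 76603 merged regions (black ticks). CAGGTG, labelled ZEB/SNAI, lies furthest right for BT474R-only regions at 31.7%.

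Ligand responses used peak size, which chose the regions only in that each BT474R library had to hold a called peak. A region that lost its peak in any of the 20 libraries could not enter. Falls to no peak were thus left out, and the counts of rises and falls are not free of the selection. Peak size was ranked in each library among the 28260 regions present in all 20 lists (the shared percentile), and each ligand was compared with the control of its time by limma with Benjamini-Hochberg adjustment over the 28260 regions. On this scale the BT474R-only regions had library medians from 16.1 to 21.0. A rank is relative, so a region can fall when others rise. With EGF, 16 of 685 regions (2.34%) passed at 1 h, against 1.26% of all regions. At 12 h 112 (16.4%) passed, against 9.3%, and at 24 h 121 (17.7%), against 10.8%.

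On the shared scale more BT474R-only regions rose than fell after EGF at 12 and 24 h, as was so over all regions. With missing peaks ranked 0 the numbers were nearly equal at 12 h and more fell at 24 h. At 1 h 7 rose (1.02%, against 0.633% of all regions) and 9 fell (1.31%, against 0.63%). At 12 h 74 rose (10.8%, against 5.88%) and 38 fell (5.55%, against 3.43%). At 24 h 86 rose (12.6%, against 6.47%) and 35 fell (5.11%, against 4.33%). The median difference over the 685 regions was 1.18 percentile points at 12 h and 1.38 at 24 h, against -0.761 and -0.9997 over all regions. The split and the excess over all regions depended on the scale. With missing peaks ranked 0 among the 44661 regions in at least 10 of 20 lists, 85 passed at 12 h (12.4%), which was the share of all regions (12.4%). No BT474R-only region lacked a peak in a BT474R list, so only other regions could be ranked 0. Of these, 43 rose (6.28%, against 8.12% of all) and 42 fell (6.13%, against 4.29%). At 24 h 65 rose (9.49%, against 8.56%) and 70 fell (10.2%, against 6.11%), and at 1 h 2 rose (0.292%, against 0.875%) and 11 fell (1.61%, against 0.558%). With percentiles of the whole list 75 rose at 24 h (10.9%, against 7.54%) and 12 fell (1.75%, against 1.02%). By area per width 50 rose at 24 h (7.3%, against 3.16%) and 10 fell (1.46%, against 1.1%). All regions thus leaned upward on both of these scales too.

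Fewer regions passed with HRG. At 1 h 0 regions passed, against 0.00708% of all regions, and 51 of 685 and 1338 of 28260 had an unadjusted limma p under 0.05. No region passed with log2 areas either. At 12 h 35 (5.11%) passed, against 3.23%, with 28 up (4.09%, against 2.33%) and 7 down (1.02%, against 0.899%). At 24 h 1 (0.146%) passed, against 0.0955%. By percentiles of the whole list 129 rose at 12 h (18.8%, against 13% of all regions) and 0 fell (against 0.0142%), so nearly all calls were upward over all regions as well. By log2 area 23 rose (3.36%, against 1.86%) and 1 fell (0.146%, against 0.396%). With missing peaks ranked 0, 24 of 685 regions passed at 12 h, against 2637 of 44661, a lower share than over all regions. EGF and HRG share their control libraries, so their counts are not independent. Leaving out the control at 12 h, replicate 1, gave 54 regions for EGF at 12 h (7.88%, against 4.37% of all regions) and 6 for HRG (0.876%, against 0.934%), so for HRG the share was then no higher than over all regions.

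The region in an exon of DUSP6 (chr12:89348855-89349736) responded to EGF at every time. Its shared percentiles at 1 h were 42.6 and 42.8 with EGF and 8.45 and 9.97 in the control. At 12 h they were 63.2 and 63.0 against 25.5 and 17.7, and at 24 h 58.0 and 56.0 against 9.95 and 6.50. EGF libraries lay above the controls at each time without overlap. The differences were 33.5 ± 5.44 (SE; limma, adjusted p = 0.0174), 41.5 ± 5.44 (adjusted p = 0.00082) and 48.8 ± 5.44 (adjusted p = 0.000268). With HRG at 12 h the values were 48.6 and 56.9, a difference of 31.1 ± 5.44 (limma, adjusted p = 0.0127). The baseline libraries stood at 32.6 and 50.2, above all 6 control libraries.

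Other regions rose with EGF. The region 43810 bp upstream of MTSS1, a regulator of actin and membranes, had shared percentiles of 61.7 and 64.4 after EGF for 24 h and 1.01 and 6.33 in the control, a difference of 59.4 ± 5.86 (limma, adjusted p = 0.000136). The region near CLDN14, a tight junction gene whose start had no peak in any list, lay within 1 kb of a noncoding start. It had 58.9 and 64.0 against 16.9 and 17.0 at 24 h (adjusted p = 0.00012 by limma) and 51.3 and 43.8 against 1.73 and 11.0 at 12 h (adjusted p = 0.000194). CRABP1, a retinoic acid binding protein, had 47.1 and 48.6 against 2.22 and 8.09 at 12 h, a difference of 42.7 ± 3.17 (limma, adjusted p = 3.4e-05), and 22.9 and 25.5 against 0.241 and 1.05 at 24 h. The start of CRABP1 had a peak in 11 BT474R and all 20 BT474 lists. WNT7B had 65.8 and 61.2 against 19.4 and 0.0354 at 12 h (limma, adjusted p = 0.0145, passing in 5 of 10 alternatives), with control libraries far apart. TENT5A rose at 1 h, from 24.9 and 18.7 to 52.1 and 48.0 (limma, adjusted p = 0.013).

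Other regions fell. In an intron of SGCE, a sarcoglycan, the shared percentile was 3.08 and 5.24 after EGF for 24 h and 43.5 and 37.1 in the control, a difference of -36.1 ± 3.91 (limma, adjusted p = 0.000236). FRMD4A, a scaffold of cell polarity, had 5.36 and 2.79 against 34.3 and 32.4 (-29.3 ± 3.21, limma, adjusted p = 0.000253). MICOS10, a subunit of the complex that shapes mitochondrial cristae, had 3.03 and 1.64 against 18.2 and 24.3 at 12 h with EGF (limma, adjusted p = 0.000328), and with HRG 9.201 and 5.15 at 12 h and 1.19 and 1.42 against 18.9 and 20.9 at 24 h, where it was the 1 region that passed (adjusted p = 0.00936). An intergenic region with no coding start within 100 kb, whose nearest start of any kind was that of LINC01288 at 200130 bp, had 1.497 and 8.03 against 50.9 and 49.1 at 12 h with EGF (limma, adjusted p = 0.000223). At 1 h, the strong region in ENSG00000234481 fell from 81.3 and 76.7 to 53.5 and 50.3 with EGF (limma, adjusted p = 0.00785), and PLXNA4, a semaphorin receptor gene, from 47.4 and 42.3 to 23.8 and 19.7 (adjusted p = 0.0149). The calls at 1 h passed in 3 of 10 alternatives at DUSP6 and TENT5A, 4 at PLXNA4 and 5 at ENSG00000234481, while those at 24 h passed in 10 of 10 at DUSP6, CRABP1, CLDN14, MTSS1, SGCE and FRMD4A.

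HRG at 12 h raised a region near LINC02101 with no coding start within 100 kb, from 7.63 and 15.3 to 34.7 and 40.9 (limma, adjusted p = 0.000888, passing in 8 of 10 alternatives), and one in an intron of CYB561D1, from 16.0 and 13.7 to 31.4 and 36.2 (adjusted p = 0.00491, 7 of 10). The region in an intron of PHGDH, the first enzyme of serine synthesis, fell from 24.0 and 22.6 to 7.37 and 8.68 (limma, adjusted p = 0.00837). That call passed in 3 of 10 alternatives. ELF3 had 57.1 and 56.6 with HRG against 20.8 and 24.0 (limma, adjusted p = 0.0339), a call that passed in 4 of 10 alternatives. None of the 3 EGFR regions passed in any of the 6 comparisons. Their smallest adjusted p by limma was 0.103, for 8.70 and 17.2 after EGF against 22.3 and 20.4 at 24 h.

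**Figure D5:**
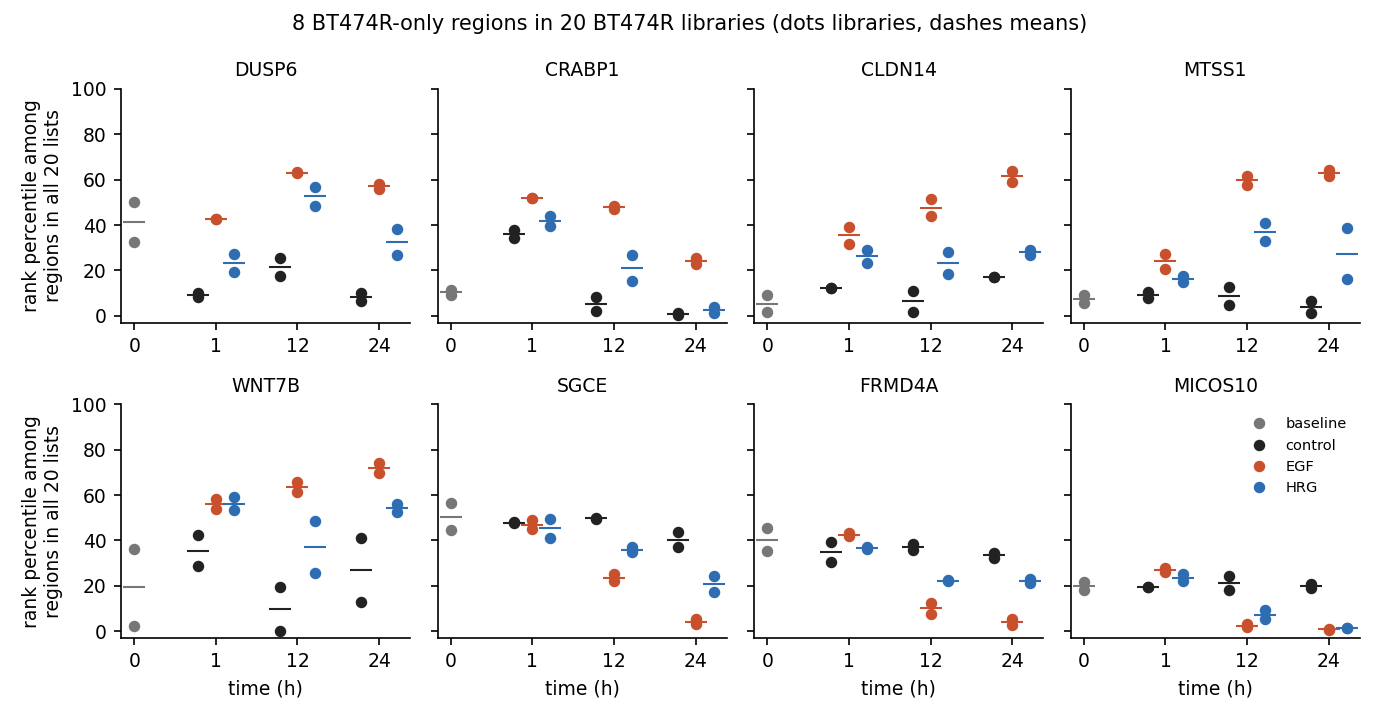
Shared percentile of 8 BT474R-only regions, named by nearest gene, in each of the 20 BT474R libraries by time in h (dots are libraries, dashes group means; grey baseline, black control, red EGF, blue HRG). At 24 h the EGF libraries lie above the controls at DUSP6, CRABP1, CLDN14, MTSS1 and WNT7B and below them at SGCE, FRMD4A and MICOS10.

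The response to EGF at 24 h differed from that at 1 h in 22 regions (3.21%), against 1.57% of all regions, by limma with Benjamini-Hochberg adjustment of the difference of differences. It was more positive at 24 h in 18 and more negative in 4. The split over all regions was not counted, so nothing is read from the 18 and 4. For HRG 0 regions differed, against 0% of all regions, with 50 of 685 and 1387 of 28260 at an unadjusted p under 0.05.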

How the data were processed

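ATAC-seq peak lists of 40 libraries (20 BT474, 20 BT474R) were used. Per the labels and methods, the authors trimmed reads with Trim Galore 0.6.6, aligned them to GRCh38.p13 with BBMap, removed mitochondrial and blacklisted reads and called peaks per library with Genrich; which options were set, and whether cut sites were shifted, is not given in the sources used here. The deposited lists hold a signal in column 7, read as Genrich's peak area, with a lowest value of 200, and a score in column 5, used only in an alternative. Neither is normalized between libraries, so ranks within libraries were used. No peak ran past the end of a GRCh38 chromosome. Peaks on other sequences were left out.

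Starts, exons and genes came from GENCODE release 44. Motifs were searched in 200 bases around the median summit, and near-identical places (at least 150 bases at 90% identity) with minimap2 2.31-r1302. Contrasts used limma 3.58.1 (R 4.3.3) with 10 group means over the 20 BT474R libraries, an adjusted p under 0.05 and a check on simulated data. Regions and gene lists were chosen with earlier results of these data known. Named regions were the 12 with the highest median list percentile, the 10 highest at coding starts, up to 2 per gene list, 2 per direction and ligand contrast by adjusted p, and, of 14 clusters tied at the largest size of 3 regions, the 6 with the highest median list percentile. Alternatives covered thresholds, peak width, overlap, ranking, the replicate block and leaving out libraries. Some named regions and sequences are not reported here.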

Additional observations from a re-analysis of the deposited data

Results flagged for a closer look

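The response to EGF in BT474R differed between 24 h and 1 h at 6 of the named regions, by limma with Benjamini-Hochberg adjustment of the difference between the responses. All but the region of the MYO7B cluster had been named for a small adjusted p in a ligand contrast. The 6 are thus no measure of how often responses differed. Over the BT474R-only regions 22 (3.21%) differed, against 1.57% of all regions. The difference of differences was 44.4 percentile points near MTSS1, where EGF raised the shared percentile by 14.99 at 1 h and 59.4 at 24 h (adjusted p = 0.0255). It was 26.8 at the region in ENSG00000234481, which fell by 27.1 at 1 h and differed by -0.32 at 24 h (adjusted p = 0.024). At the third region of the MYO7B cluster it was 23.5 (adjusted p = 0.0177), and the EGF response at 24 h there, 25.7 on the shared scale, was reversed by area per width (-17.3). It was -36.9 at FRMD4A (adjusted p = 0.00326), -35.2 at SGCE (adjusted p = 0.0114) and -26.7 at MICOS10 (adjusted p = 0.00303), where EGF libraries lay near or above the controls at 1 h and below them at 24 h.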

How the results depend on the processing

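The number of regions was 685, and 303 of these were among the 1011 found with an equal number of top peaks per list. It was 1660 with at least 18 BT474R and at most 2 BT474 lists, and between 685 and 944 with 1 library left out. Alternatives chosen after seeing the data gave 317 regions (127 shared) with column 7 of at least 400, and 1236 without the control and EGF libraries of BT474R at 12 h. The share at starts was 31.2% within 3 kb and 18.3% with column 7 of at least 400. The AP-1 share was 17.96% within 250 bp and 13.6% with equal numbers of peaks. The share within 100 kb of another region was 28.4% with equal numbers of peaks, 28.9% without the 12 h control and EGF libraries, 25.1% without the control at 12 h, replicate 1, 19.2% without replicate 2, and 6.57% for a gap of 10 kb. The median list percentile moved by less than the spread between libraries.

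Counts of regions that passed in limma depended on the scale. Counts over all 28260 regions, in brackets, moved as well. For EGF at 1 h, 16 (357) passed on the shared scale and 6 (141) with log2 of column 7. The percentile within the whole list gave 0 (10), area per width 0 (33) and only the 4 libraries of the contrast 0 (0). For EGF at 12 h, 112 (2629) passed, with the whole-list percentile 70 (2109), area per width 34 (723) and the 4 libraries 14 (258). For EGF at 24 h, 121 (3052) passed, with area per width 60 (1204) and the 4 libraries 76 (1660). For HRG at 12 h, 35 (912) passed, with the whole-list percentile 129 (3678), area per width 15 (499) and the 4 libraries 0 (0). For HRG at 24 h, 1 (27) passed, with log2 2 (53) and the whole-list percentile 2 (34). Area per width gave 3 (39), the 4 libraries 0 (0) and regions in at least 10 lists 2 (290 of 44661). Leaving out 1 library at a time gave 0 to 4 for EGF at 1 h, 54 to 91 at 12 h and 52 to 72 at 24 h, and 2 to 26 for HRG at 12 h and 0 to 10 at 24 h. Lone libraries are then assumed to vary like the other groups. The lowest counts came without the control, replicate 1, at 1, 12 and 24 h for EGF and without HRG replicate 2 at 12 h for HRG; HRG at 24 h was highest without HRG replicate 1. The causes were not tested.

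Of 53 limma calls at named regions, 10 passed in all alternatives run for them and 51 had the same direction in all. By area per width the EGF response at 24 h was reversed at TENT5A (-3.66) and at the third MYO7B region (-17.3). Replicate numbers did not consistently pair the libraries: deviations of 45 pairs of groups correlated from -0.385 to 0.453, with a median of 7.4e-05 and 11 over 0.1. Some groups thus shared variation, and a pairing under another numbering was not tested. With a replicate block the counts were 16, 125 and 125 for EGF and 0, 38 and 1 for HRG. Over all 28260 regions they were 376, 2817 and 3197 for EGF and 0, 1013 and 26 for HRG. Depth is unknown, and small peaks limit the set to regions called in every list.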
